A study of Rattus norvegicus with 12 samples.

Results

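Transcripts of 10 genes that mark or drive the passage of epithelial cells towards a mesenchymal state were followed in NRK-52E, a line from rat kidney that the labels call tubular epithelial. They were the transcription factors Snai1, Snai2, Zeb1, Zeb2, Twist1 and Twist2, the chromatin protein gene Hmga2, the filament gene Vim and the epithelial-type factors Elf3 and Elf5. The genes were chosen by name, with earlier results of these data known, and all 10 were present among the 24660 rows of the count table. RNA sequencing covered 12 libraries of wild-type cells, 3 in each of 4 groups. Control cells have no agent named in the labels. TGF-beta1 cells received that profibrotic cytokine for 24 h, at 10 µg/ml in the labels, a unit that is in doubt because ng/ml is usual. The other groups were TGF-beta1 + 2D-EVs and TGF-beta1 + 3D-EVs, in which the cytokine was followed by 48 h with extracellular vesicles at 500000000 particles/ml, made by a conventional (2D) or a more productive (3D) culture; they are called 2D-EV and 3D-EV cells. The sources used here do not say which cells made the vesicles, at what time the cells without vesicles were collected, or if the cytokine stayed during the vesicle step, so that vesicles, elapsed time and withdrawal of the cytokine cannot be told apart. The labels do not say that the 3 libraries of a group came from separate cultures, so the p-values rest on differences among these 3 libraries that may be technical in origin.

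In epithelial-mesenchymal transition, TGF-beta signalling through Smad proteins induces Snail, Zeb and Twist factors. Snail and Zeb proteins bind E-box sequences and repress junction genes such as Cdh1, while cells gain vimentin filaments, motility and matrix production. In the kidney, injured tubules switch on part of this programme and are often described as in partial transition. Elf3 and Elf5 belong to the epithelium-specific branch of the ETS transcription factors, and Elf5 is best known from mammary and other secretory epithelia, where it has been described as a repressor of Snai2.

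Library totals ran from 32888125 to 39754319 counts. Levels are given as CPM, counts relative to the library size with TMM scaling, where 1 count equalled 0.0255 to 0.0305 CPM. For a gene without counts in a library, counting error alone allows about 3 counts, or 0.0764 to 0.0916 CPM, at 95% confidence. The table held 1514 values of 1 and 5687 of 2, so this limit is approximate. It covers no other source of error. Markers of the labelled cell type were mixed. Krt8 (1013 CPM in control cells), Ggt1 (165 CPM) and Aqp1 (19.8 CPM) were present, while of 23 listed tubular markers some 5 (Pax2, Hnf4a, Epcam, Umod and Aqp2) held no count in any library, and Cdh1, epithelial cadherin, held 2 to 30 counts per library. Summed tubular markers were 1250 to 1281 CPM in control and 1566 to 1631 CPM in TGF-beta1 cells, with Krt8 and Ggt1 higher (adjusted p = 1.19e-05 and 1.43e-09), Aqp1 and Anpep lower (0.0245 and 0.0232) and 9 of the 13 tested markers not passing. Summed fibroblast and pericyte markers were 787 to 839 and 767 to 792 CPM. Of these 14 markers, Mfap5 (551 CPM in control cells), Col14a1 (199), Postn (41.3) and Pdgfrb (18.8) were well detected, while Dcn and Lum held 0 to 6 counts and Fap none. With TGF-beta1, Postn rose 1.57-fold, Col14a1 fell to 0.651 of control and 5 of the 7 tested did not pass. Whether reads of a gene were counted in another row was not tested, so a value at or near 0 is a listed value. The part of these shifts in the results below was not tested.

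The sequence before the transcription start is shown for Snai1, Hmga2 and Vim, which rose with TGF-beta1, and for Zeb1, which did not pass the test, because these genes share TGF-beta or E-box regulation in textbook accounts. The RefSeq promoter table (GRCr8, another build than the mRatBN7.2 of the counts, with 1 start per gene) held 8 of the 10 genes, and Snai2 and Elf5 were not among them. The 250 bases before the start lie at chr3:176667226-176667475 (plus strand) for Snai1, chr17:56810654-56810903 (minus strand) for Zeb1, chr7:57880342-57880591 (minus strand) for Hmga2 and chr17:81577011-81577260 (plus strand) for Vim. Capitals mark the E-box CACCTG on either strand.
Snai1: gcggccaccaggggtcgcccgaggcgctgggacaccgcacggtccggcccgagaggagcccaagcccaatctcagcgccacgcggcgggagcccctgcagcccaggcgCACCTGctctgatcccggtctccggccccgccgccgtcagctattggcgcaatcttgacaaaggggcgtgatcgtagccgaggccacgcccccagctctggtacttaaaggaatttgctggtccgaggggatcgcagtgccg
Zeb1: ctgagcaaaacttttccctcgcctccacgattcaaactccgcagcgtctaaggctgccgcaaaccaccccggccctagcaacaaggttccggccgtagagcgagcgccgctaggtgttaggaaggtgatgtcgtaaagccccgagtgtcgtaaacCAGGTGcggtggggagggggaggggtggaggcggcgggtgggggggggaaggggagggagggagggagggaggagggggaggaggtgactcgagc
Hmga2: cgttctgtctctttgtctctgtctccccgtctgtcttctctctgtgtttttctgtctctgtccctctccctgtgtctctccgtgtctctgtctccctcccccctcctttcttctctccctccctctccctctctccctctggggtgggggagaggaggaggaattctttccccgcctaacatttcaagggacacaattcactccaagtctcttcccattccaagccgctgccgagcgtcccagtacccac
Vim: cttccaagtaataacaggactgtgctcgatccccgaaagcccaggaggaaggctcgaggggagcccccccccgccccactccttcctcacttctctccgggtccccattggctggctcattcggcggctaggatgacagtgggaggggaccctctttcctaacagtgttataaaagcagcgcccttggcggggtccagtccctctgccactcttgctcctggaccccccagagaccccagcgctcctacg
The E-box stood once in the Snai1 window, at position -142 from the start, and once in that of Zeb1, at position -95, and was absent from those of Hmga2 and Vim. Over all 27457 promoters of the table, 15.6% of such 250-base windows held it on either strand. The Smad element CAGAC, searched on both strands, occurred once in the Hmga2 window and not in the other 3, against 42.8% of all windows. Among genes not shown, the Elf3 window held 1 E-box (-176) and that of Twist1 held 2 Smad elements (-137 and -102). The Zeb2 and Twist2 windows held neither motif. None of these genes passed with TGF-beta1. The ETS core GGAA, likewise on both strands, occurred in all 4, as in 93.2% of all windows. These matches describe letters only and were not set against binding data.

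The comparison of TGF-beta1 with control cells addressed which of these genes the cytokine moved. All 10 passed the filter on low counts. Elf5, Snai1, Hmga2 and Vim rose, none fell, and Snai2, Zeb1, Zeb2, Twist1, Twist2 and Elf3 did not pass (edgeR, adjusted p below 0.05 over all genes). Thus 4 of 10 rose, beside 11.8% of the 14184 genes tested, and 0 of 10 fell, beside 10.2%. The genes were chosen with earlier results of these data known, so these shares are a description only. The median log2 fold change of the 10 genes was 0.19, and that of all tested genes was 0. Genes in this comparison were called in 22.0% of cases in either direction.

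**Figure D1:**
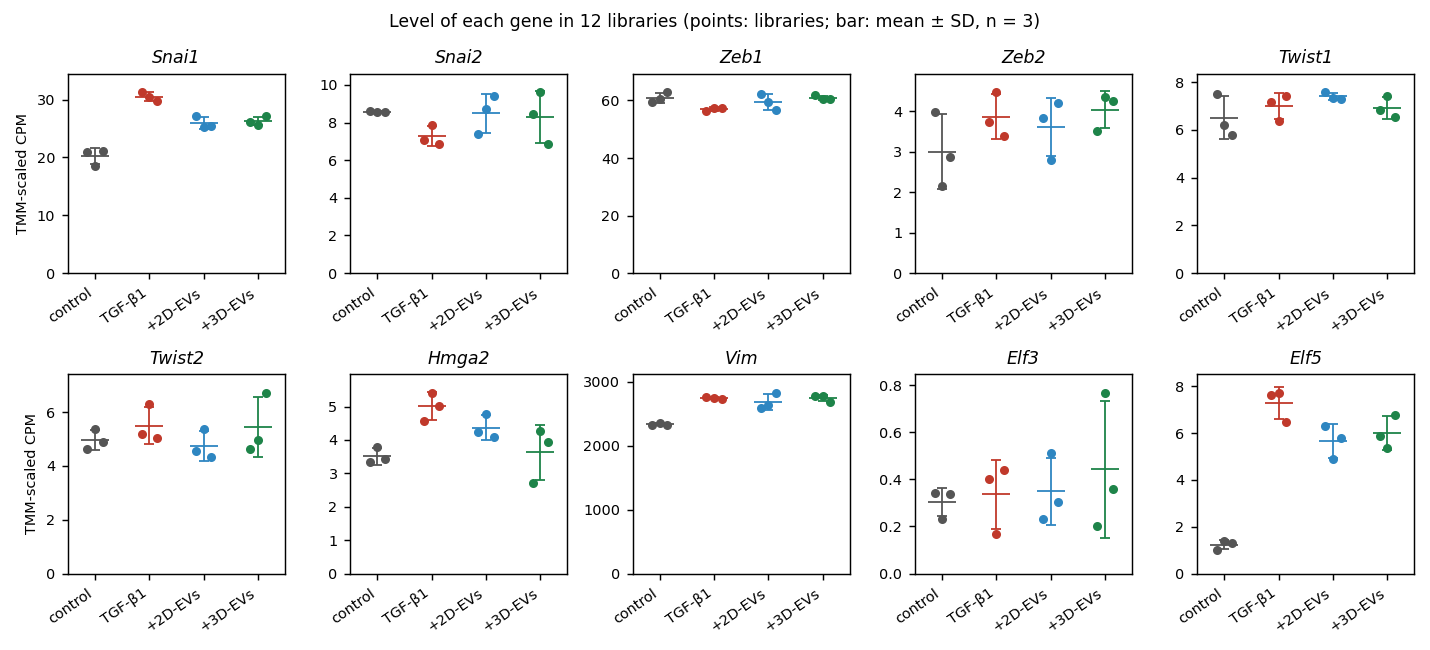
TMM-scaled CPM (y axes, each from 0) of the 10 genes in the 4 groups; points are libraries, and bars give the mean and SD of 3 libraries. Control libraries of Elf5 and Snai1 lie below all others and the TGF-beta1 group has the highest mean, from which neither vesicle group differed at adjusted p below 0.05, while Vim stays near its TGF-beta1 level in both vesicle groups.

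Snai1 encodes Snail, a zinc-finger repressor that acts early in the transition. Its libraries held 20.9, 18.6 and 21.1 CPM in control cells and 31.3, 30.5 and 29.8 CPM in TGF-beta1 cells. The 2D-EV libraries held 27.2, 25.3 and 25.5 CPM and the 3D-EV libraries 26.1, 25.7 and 27.1 CPM. Both vesicle groups thus lay between the other groups without overlapping either. TGF-beta1 raised Snai1 1.51-fold (30.5 ± 0.746 against 20.2 ± 1.38 CPM, mean ± SD, n = 3 throughout; log2 fold change 0.59, SE 0.06, adjusted p = 6.47e-06). The level remained above control in 2D-EV cells (1.29-fold, log2 fold change 0.36, SE 0.06, adjusted p = 0.000708) and in 3D-EV cells (1.30-fold, 0.38, SE 0.06, adjusted p = 0.000397), comparisons that share the control libraries.

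Snai2 encodes Slug, a Snail-family repressor of migrating and regenerating epithelia. Control libraries were almost identical, at 8.61, 8.58 and 8.57 CPM, and TGF-beta1 libraries held 7.07, 7.87 and 6.87 CPM. The TGF-beta1 libraries were all below control, opposite in sign to Snai1, but the difference did not pass (log2 fold change -0.24, SE 0.12, 95% interval -0.50 to 0.02, adjusted p = 0.196). Libraries of 2D-EV cells held 7.38, 8.72 and 9.40 CPM and those of 3D-EV cells 8.46, 9.62 and 6.88 CPM, and both ranges overlapped those of control and TGF-beta1 cells.

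Zeb1 and Zeb2 encode the paired zinc-finger and homeodomain repressors that hold cells in a mesenchymal state. Zeb1 held 59.6, 60.6 and 62.9 CPM in control libraries and 56.2, 57.4 and 57.4 CPM in TGF-beta1 libraries. It was lower in each TGF-beta1 library than in any control library, by a small margin that did not pass (log2 fold change -0.10, SE 0.04, 95% interval -0.19 to -0.01, adjusted p = 0.11). Libraries not overlapping downward were 2 of the 10 genes (Zeb1 and Snai2), beside 18.9% of all genes, and upward 4 of 10 (Snai1, Hmga2, Vim and Elf5), beside 19.1%. In 2D-EV cells Zeb1 held 62.1, 59.5 and 56.7 CPM and in 3D-EV cells 61.8, 60.6 and 60.4 CPM, with means of 59.4 and 60.9 against 61.0 CPM in control cells.

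Zeb2 was weaker in counts and more variable, with 3.98, 2.16 and 2.86 CPM in control and 3.74, 4.47 and 3.38 CPM in TGF-beta1 libraries. The groups overlapped through control replicate 1, and the difference did not pass (log2 fold change 0.36, SE 0.21, 95% interval -0.09 to 0.82, adjusted p = 0.26). In 2D-EV cells it held 3.82, 2.80 and 4.21 CPM and in 3D-EV cells 3.51, 4.36 and 4.26 CPM. Without control replicate 1, the difference between 3D-EV and control cells passed (log2 fold change 0.69, adjusted p = 0.0377, against 0.43 and adjusted p = 0.174 with all libraries).

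Twist1 and Twist2 encode basic helix-loop-helix factors of mesoderm that promote migration and survival. Twist1 held 7.50, 6.22 and 5.80 CPM in control and 7.16, 6.38 and 7.42 CPM in TGF-beta1 libraries, and Twist2 held 4.63, 5.37 and 4.90 and 5.18, 6.29 and 5.03 CPM. Groups overlapped for both genes. The log2 fold changes with TGF-beta1 were 0.10 for Twist1 (95% interval -0.14 to 0.34, adjusted p = 0.582) and 0.15 for Twist2 (-0.18 to 0.47, adjusted p = 0.562). The means of the 4 groups spanned 6.51 to 7.40 CPM for Twist1, highest in 2D-EV cells, and 4.75 to 5.50 CPM for Twist2, lowest in 2D-EV cells, and no comparison of either passed.

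Hmga2 encodes an architectural chromatin protein that TGF-beta induces and that has been described to switch on Snai1. Its libraries held 3.33, 3.79 and 3.42 CPM in control cells (117 to 130 counts) and 4.57, 5.42 and 5.03 CPM in TGF-beta1 cells (159 to 193 counts). The groups did not overlap, and Hmga2 rose 1.43-fold (log2 fold change 0.51, SE 0.16, adjusted p = 0.0332). This call was lost without control replicate 1 (adjusted p = 0.10), control replicate 3 (0.0877), TGF-beta1 replicate 2 (0.115) or TGF-beta1 replicate 3 (0.0765), at log2 fold changes of 0.45 to 0.51. Libraries of 2D-EV cells held 4.23, 4.79 and 4.09 CPM, all above control, a difference from control that did not pass (log2 fold change 0.32, SE 0.16, adjusted p = 0.214). Libraries of 3D-EV cells held 2.70, 4.27 and 3.93 CPM and overlapped control on both sides (log2 fold change 0.05, 95% interval -0.30 to 0.40, adjusted p = 0.884).

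Vim encodes vimentin, the intermediate filament of mesenchymal and cultured cells. Control libraries held 2324, 2351 and 2324 CPM, and TGF-beta1 libraries 2755, 2749 and 2724 CPM. The gap between the groups was many times the spread within them, though the size of the rise was small (1.18-fold, log2 fold change 0.23, SE 0.03, 95% interval 0.17 to 0.30, adjusted p = 6.17e-05). Libraries of 2D-EV cells held 2579.6, 2635 and 2829 CPM and those of 3D-EV cells 2769, 2778 and 2685 CPM, all above every control library. Against control, Vim was 1.15-fold higher in 2D-EV cells (adjusted p = 0.000312) and 1.18-fold higher in 3D-EV cells (adjusted p = 6.70e-05).

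Elf5 moved most of the 10 genes. Without the strand setting, its reads, like those of Hmga2, Zeb1 and Zeb2, cannot be told apart from those of overlapping noncoding genes. Its libraries held 1.02, 1.37 and 1.29 CPM in control cells (36 to 47 counts) and 7.62, 7.73 and 6.49 CPM in TGF-beta1 cells (236 to 275 counts), a 5.92-fold rise (log2 fold change 2.56, SE 0.16, adjusted p = 4.56e-08). By log2 fold change it was number 19 from the top of the 14184 tested genes. In 2D-EV cells it held 6.30, 4.90 and 5.77 CPM and in 3D-EV cells 5.88, 5.35 and 6.76 CPM. Every library given TGF-beta1, with or without vesicles, was above every control library (4.60-fold in 2D-EV cells, adjusted p = 3.79e-07, and 4.87-fold in 3D-EV cells, adjusted p = 1.72e-07). Elf3, its epithelial relative, was near the limit of measurement in all groups, at 6 to 16 counts per library in control and TGF-beta1 cells and 8 to 27 with vesicles. Control libraries held 0.341, 0.233 and 0.336 CPM and TGF-beta1 libraries 0.403, 0.169 and 0.440 CPM. The interval of its log2 fold change, -1.05 to 1.34, is too wide to show or exclude a change of 2-fold at this depth (0.15, adjusted p = 0.892).

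**Figure D2:**
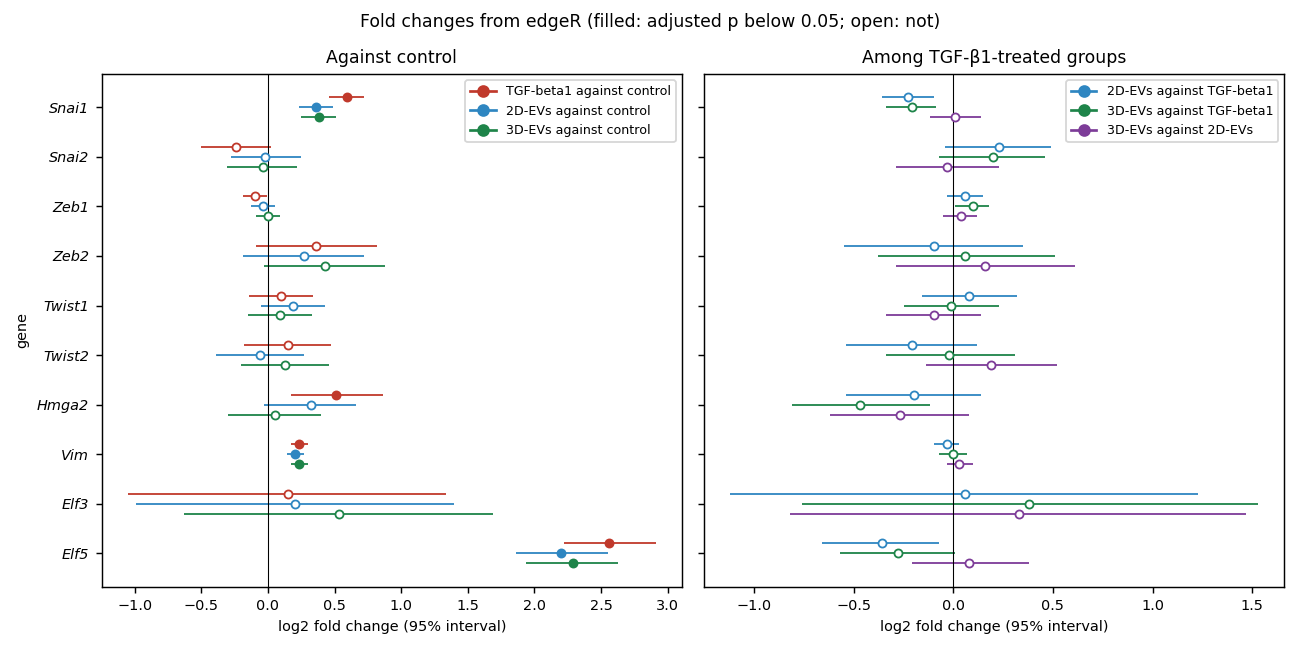
Log2 fold changes (x axis) of the 10 genes (y axis) with 95% intervals from edgeR, against control on the left and among the TGF-beta1-treated groups on the right; filled points passed at adjusted p below 0.05. Elf5, Snai1 and Vim are filled in all 3 comparisons with control, Hmga2 in that of TGF-beta1 alone, and no point is filled on the right.

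The comparisons of 2D-EV and 3D-EV cells with TGF-beta1 cells addressed whether vesicles moved these genes after the cytokine, and both use the same 3 TGF-beta1 libraries. None of the 10 genes passed in either (edgeR; lowest adjusted p = 0.311 with 2D-EVs and 0.511 with 3D-EVs), and none by DESeq2 or limma-voom. Calls were scarce among all genes, at 0.0282% with 2D-EVs (4 genes, all lower) and 0% with 3D-EVs. At an unadjusted p below 0.05 there were 2 of the 10 genes with 2D-EVs and 3 with 3D-EVs, beside 7.10% and 7.24% of all genes.

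Snai1 was lower than in TGF-beta1 cells by 0.23 with 2D-EVs (log2 fold change -0.23, SE 0.06, 95% interval -0.36 to -0.10, unadjusted p = 0.00184) and by a like amount with 3D-EVs (-0.21, SE 0.06, -0.34 to -0.09, unadjusted p = 0.00292). Elf5 stood at 5.66 ± 0.707 CPM with 2D-EVs and 6.0 ± 0.709 CPM with 3D-EVs, against 7.28 ± 0.688 CPM in TGF-beta1 cells (log2 fold changes -0.36, SE 0.14, and -0.28, SE 0.14). Only the 2D-EV libraries of Elf5 lay wholly below those of TGF-beta1 cells. Hmga2 stood at 4.37 ± 0.369 CPM with 2D-EVs and 3.63 ± 0.826 CPM with 3D-EVs, against 5.01 ± 0.426 CPM (log2 fold changes -0.20, SE 0.16, and -0.47, SE 0.16), and its 3D-EV libraries were all below TGF-beta1 cells. Libraries below TGF-beta1 without overlap were thus 2 of 10 genes with 2D-EVs (Snai1 and Elf5), beside 6.23% of all genes, with none above (6.13% of all genes), and 2 of 10 with 3D-EVs (Snai1 and Hmga2), beside 6.83%. Zeb1 lay wholly above TGF-beta1 cells with 3D-EVs (log2 fold change 0.10, SE 0.04, unadjusted p = 0.0346), where 6.80% of all genes did so.

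Vim held its TGF-beta1 level most closely, with means of 2681 ± 131 CPM with 2D-EVs and 2744 ± 51.3 CPM with 3D-EVs against 2743 ± 16.6 CPM. The 95% intervals of its log2 fold change, -0.10 to 0.03 and -0.07 to 0.07, bound any difference from TGF-beta1 cells at a small size. Its 2D-EV libraries spread more widely than those of the other groups (coefficient of variation 4.89%, against 0.605 to 1.87%).

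The comparison of 3D-EV with 2D-EV cells set the preparations side by side. None of the 10 genes passed (lowest adjusted p = 0.806 in edgeR, none by DESeq2 or limma-voom), none had an unadjusted p below 0.05, and none had libraries that did not overlap, where 5.67% of all genes did so upward and 5.68% downward. Of all 14184 genes, 1 passed (0.00705%). The largest differences were in Elf3, at trace level (log2 fold change 0.33, SE 0.54), and in Hmga2 (-0.27, SE 0.16, 95% interval -0.62 to 0.08). For Snai1 the difference was 0.01 (95% interval -0.12 to 0.14), for Vim 0.03 (-0.03 to 0.10) and for Elf5 0.08 (-0.21 to 0.38), so that for Snai1 and Vim a difference of 1.51-fold or 1.18-fold, the sizes of their TGF-beta1 responses, lies outside these intervals.

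Set against control cells, 3 of 10 genes (Snai1, Vim and Elf5) were higher in 2D-EV cells, where 10.5% of all genes were, and the same 3 were higher in 3D-EV cells, where 12.2% were. None was lower, beside 8.13% and 10.8% of all genes; calls in either direction made up 18.6% and 23.0%. Libraries lay wholly above control for 4 of 10 genes in 2D-EV cells (those 3 and Hmga2), beside 17.2% of all genes, and for 3 of 10 in 3D-EV cells, beside 19.4%. None of the 10 lay wholly below control, beside 16.1% and 18.6%. By the means, Elf5 and Snai1 had the order TGF-beta1, 3D-EV, 2D-EV, control, and Hmga2 the order TGF-beta1, 2D-EV, 3D-EV, control. The neighbours 3D-EV and 2D-EV did not differ beyond their spread for any of the 3.

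The counts in lists of related genes are to be read against 11.8% of all tested genes that rose and 10.2% that fell with TGF-beta1. Of 16 tested other regulators of mesenchymal state, 3 rose with TGF-beta1, 0 fell and 13 did not pass, with a median log2 fold change of 0.04. Foxc2, a forkhead factor of mesenchyme, rose 2.23-fold (8.80 ± 0.518 against 3.94 ± 0.239 CPM, adjusted p = 1.13e-06) and stood at 6.45 ± 0.286 and 6.56 ± 0.210 CPM in 2D-EV and 3D-EV cells. Runx1 rose 1.65-fold (23.0 ± 1.98 against 13.9 ± 0.541 CPM) and stood at 19.1 and 19.9 CPM with vesicles. Runx2 was the third (log2 fold change 0.31, SE 0.06, adjusted p = 0.0013). Foxc2 and Runx1 stayed above control with 2D-EVs (edgeR, adjusted p = 0.000179 and 0.00106) and with 3D-EVs (0.000103 and 0.000336). Against TGF-beta1 cells, 0 of the 16 passed in either vesicle group. Prrx1 and Tbxt held no count, and Lef1, Gsc and Sox9 at most 4.

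Of 11 tested regulators of epithelial state, 0 rose, 4 fell (Klf5, Foxa1, Grhl1 and Klf4) and 7 did not pass, with a median log2 fold change of -0.31. Against the same control libraries, 2 of the 11 fell in 2D-EV cells and 2 in 3D-EV cells (Klf5 and Foxa1 in each). Among all genes, 8.13% and 10.8% fell in these comparisons. Against TGF-beta1 cells, 0 of the 11 passed in either vesicle group (edgeR), Klf4 and Grhl1 included. With TGF-beta1, Foxa1, a pioneer factor of endodermal and glandular epithelia, fell from 12.4 ± 0.300 to 7.86 ± 1.38 CPM (adjusted p = 0.00182). Klf5 fell from 108 ± 2.39 to 87.6 ± 4.95 CPM (adjusted p = 0.000523). Elf5 thus rose while no tested gene of this list did. A further 12 regulators were below the filter: Ovol2, Esrp2, Hnf4a and Pax2 held no count in any library, Esrp1, a splicing factor of epithelia, at most 2 counts, and Grhl2, a factor that maintains Cdh1, 0 to 12.

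Of 16 other tested ETS genes, 4 rose with TGF-beta1, 1 fell and 11 did not pass (median 0.06). Etv4 (33.9 ± 0.308 against 23.2 ± 1.87 CPM, 1.46-fold) and Elk3 (1.23-fold) rose, as did Ets1 (log2 fold change 0.16) and Ets2 (0.23), while Etv1 fell (1.88 against 3.32 CPM). None came near the 5.92-fold rise of Elf5.

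**Figure D3:**
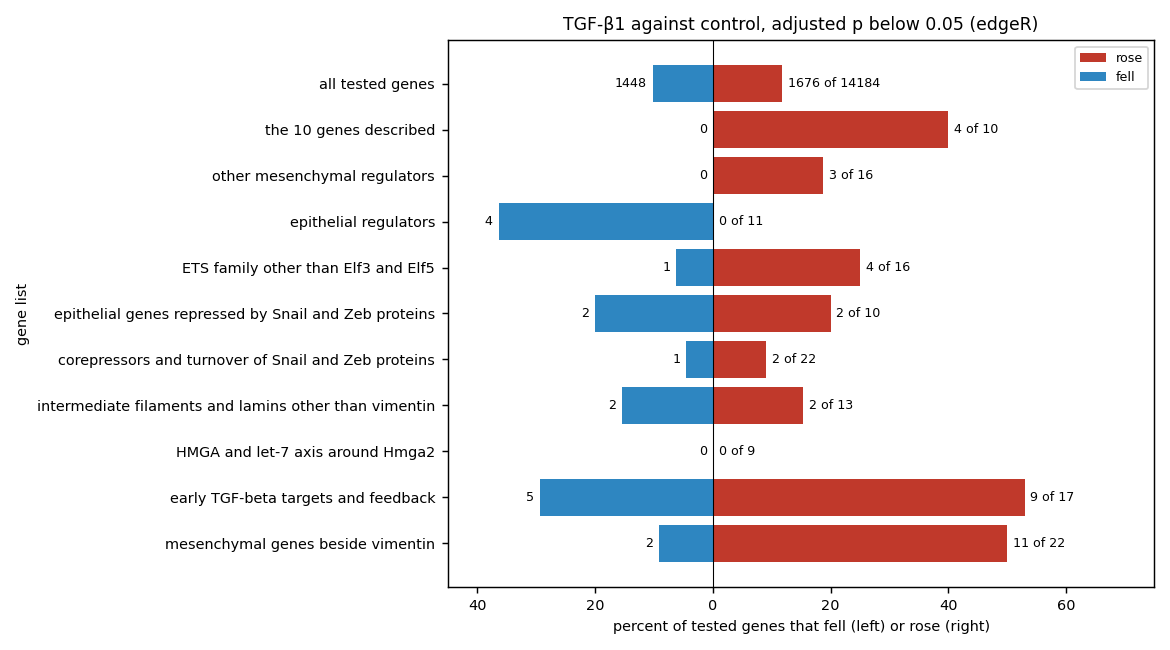
Percent of tested genes in each list (y axis) that rose (right, red) or fell (left, blue) in TGF-beta1 against control cells (x axis), with counts beside the bars. Epithelial regulators fell in 4 of 11 cases and rose in 0, and the 10 genes described rose in 4 and fell in 0, beside 11.8% of all tested genes that rose and 10.2% that fell.

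Of 10 tested genes known as targets of Snail and Zeb repression, 2 rose and 2 fell with TGF-beta1 and 6 did not pass (median -0.05), beside 11.8% and 10.2% of all genes, and 12 more in the table were below the filter. Tjp3, a tight junction scaffold, fell to 2.66 ± 0.323 from 5.75 ± 0.649 CPM (adjusted p = 8.83e-05) and stood at 2.86 and 3.01 CPM in 2D-EV and 3D-EV cells. Llgl2, a polarity protein, fell by 0.23 on the log2 scale, and Pkp2, a desmosomal protein, rose by 0.25. Cldn4, a claudin, rose from 0 to 4 counts per control library to 6 to 27 (adjusted p = 0.00855). Cdh1 was at 0.627 ± 0.221 CPM in control cells, 0.321 ± 0.186 in TGF-beta1, 0.294 ± 0.120 in 2D-EV and 0.156 ± 0.0984 in 3D-EV cells, and its fall passed in 3D-EV against control cells alone (2 to 9 counts, log2 fold change -1.97, SE 0.60, adjusted p = 0.0268).

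Of 22 mesenchymal genes beside vimentin, 11 rose with TGF-beta1, 2 fell and 9 did not pass (median 0.21, close to the 0.23 of Vim). Tagln and Acta2, of the contractile apparatus, rose 1.54-fold and 1.47-fold, and Col3a1 and Mmp2 fell (log2 fold changes -1.41 and -0.52). With 2D-EVs, Acta2 fell from 861 ± 12.9 to 723 ± 12.6 CPM (adjusted p = 0.0102), and the other 21 did not pass. With 3D-EVs it stood at 838 ± 13.9 CPM (log2 fold change -0.04, SE 0.03, adjusted p = 0.851), and 0 of the 22 passed (edgeR). The difference between 3D-EV and 2D-EV cells did not pass (0.21, SE 0.03, adjusted p = 0.0698). Of 17 early TGF-beta targets and feedback genes, 9 rose and 5 fell (median 0.24). Ccn2, a matricellular protein of fibrosis, rose 1.44-fold (4060.1 ± 63.6 against 2823 ± 53.4 CPM, adjusted p = 3.36e-09). It fell with 2D-EVs (3451 ± 73.2 against 4060.1 ± 63.6 CPM, adjusted p = 0.00238) and was higher in 3D-EV than in 2D-EV cells (4072 ± 63.7 CPM, adjusted p = 0.00189), where it was the one gene of all that passed.

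Genes whose levels followed the 4 genes that rose were sought among 10591 named genes with a mean of at least 1 CPM, by Pearson's r of log2(CPM + 1) over the 12 libraries. These libraries share groups and scaling, and the values are a description. Closest to Elf5 were Snd1 (r = 0.984), Rimklb (0.981) and Fbln2 (0.980), the last at 44.2 CPM in control, 164 in TGF-beta1, 149 in 2D-EV and 152 in 3D-EV cells. Closest to Snai1 were Dclk1 (0.971), Rab10 (0.969) and Plaur, the urokinase receptor (0.968; 83.6, 136, 117 and 119 CPM in the same order). Closest to Vim were Abcg2 (0.981), Msmo1 (0.979) and Dync1i2 (0.978), and to Hmga2, less tightly, Chml (0.910), Tent4a (0.890) and Tdrd7 (0.824). Among the 10 genes themselves, Elf5 had r = 0.93 with both Snai1 and Vim, and Snai1 and Vim 0.83. Snai1 with Snai2 had r = -0.55, and Snai1 with Zeb1 -0.54.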

How the data were processed

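RNA of NRK-52E cells was sequenced in 12 libraries. The deposited values are whole-number counts per gene, not normalized by the authors; the submitters' processing notes name fastp, HISAT2, StringTie, DESeq2 and the build mRatBN7.2. Versions, annotation and strand setting are not given there. Without the strand, reads of Zeb1, Zeb2, Hmga2 and Elf5 cannot be told apart from those of noncoding genes that overlap them in RefSeq. The tables of single libraries, 12 in all, held the same values as the joint one.

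The analysis used edgeR 4.0.16 under R 4.3.3. Of 24660 genes, 14184 passed filterByExpr (minimum count 10). A model with a mean for each group was fitted to all libraries after TMM scaling (factors 0.983 to 1.03), and 6 contrasts were tested by the quasi-likelihood F-test with Benjamini-Hochberg adjustment over all tested genes (threshold 0.05). Intervals of log2 fold changes are 95% intervals from that fit. Any 2 libraries of a group differed by more than counting noise (chi-square per degree of freedom 6.66 to 10.6), so none was a copy of another. This check cannot tell separate cultures from technical repeats of the same culture. Alternatives were RLE factors, DESeq2 1.42.0, limma-voom 3.58.1, no filter, fits on the groups compared, a replicate block and leaving out each library. The code was tested on simulated data for TGF-beta1 against control, with changes set in genes with a mean above 1 CPM. It recovered 75% of 100 changes of 0.5 on the log2 scale and 99% of 100 changes of 1, with 11 false calls. Smaller changes were not simulated. The 10 genes and the 9 gene and 4 marker lists were chosen with earlier results of these data known. Named from a list were up to 2 genes that rose and 2 that fell with the smallest p per comparison. Runx2, Grhl1, Klf4, Ets1, Ets2 and genes at or near 0 were named after their values were seen. All list members were counted, and 1 that the rule names is not reported here.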

Additional observations from a re-analysis of the deposited data

How the results depend on the processing

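Over 6 comparisons and 12 alternatives each, the log2 fold changes of the 10 genes gave 720 values, of which 678 kept direction and side of the threshold, 4 lost the call (Hmga2 with TGF-beta1), 1 gained it (Zeb2 in 3D-EV against control cells without control replicate 1) and 37 changed sign. The calls of Elf5, Snai1 and Vim against control held in every alternative run. The number of the 10 genes called was 4, 0, 0, 0, 3 and 3 under every alternative that kept all libraries, the replicate block included, and 3 to 4 with TGF-beta1, 0 in the 3 comparisons among TGF-beta1-treated groups, 3 in 2D-EV and 3 to 4 in 3D-EV against control cells when a library was left out. The sign changes were all in differences that had not passed. Zeb1 in 3D-EV against control cells was 0.00 with RLE factors and with DESeq2, and Elf3 in 2D-EV against TGF-beta1 cells was 0.00 with the replicate block. The others came from leaving out a library. In TGF-beta1 against control the range was -0.09 to 0.47 for Elf3. In 2D-EV against TGF-beta1 cells the range was -0.22 to 0.05 for Zeb2, -0.32 to 0.29 for Elf3. In 3D-EV against TGF-beta1 cells the range was -0.07 to 0.03 for Twist1, -0.19 to 0.09 for Twist2, -0.02 to 0.18 for Zeb2, -0.01 to 0.02 for Vim, -0.28 to 0.74 for Elf3. In 3D-EV against 2D-EV cells the range was -0.01 to 0.05 for Snai1, -0.01 to 0.17 for Elf5, -0.15 to 0.09 for Snai2, -0.33 to 0.71 for Elf3. In 2D-EV against control cells the range was -0.09 to 0.08 for Snai2, -0.17 to 0.42 for Elf3. In 3D-EV against control cells the range was -0.02 to 0.02 for Zeb1, -0.09 to 0.22 for Hmga2, -0.13 to 0.89 for Elf3, -0.16 to 0.07 for Snai2, -0.05 to 0.24 for Twist2.

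Over all genes, the 4 calls in 2D-EV against TGF-beta1 cells became 56 with DESeq2, 9 with limma-voom, 14 without a filter, 7 in a fit on those groups and 1 to 3 with a library left out. The 0 calls in 3D-EV against TGF-beta1 cells became 13 with DESeq2 and 0 to 2 with a library left out. The 1 call in 3D-EV against 2D-EV cells became 21 with DESeq2, 2 with limma-voom, 8 without a filter, 2 with the replicate block, 2 in a fit on those groups and 1 to 3 with a library left out. The causes were not tested. Counts against control stayed within 1.5 times. The replicate block gave 2858 calls in TGF-beta1 against control cells (3124 without it), and same-numbered libraries did not deviate together (residual r -0.066 to 0.045, 0 of 18 pairs above 0.1; own number closest in 5 of 12 libraries), and no pairing was assumed. Depth limits Elf3 and Cdh1, at 2 to 30 counts, and Cldn4, at 0 to 28 counts.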

Other observations

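Over all tested genes, 11.8% rose and 10.2% fell with TGF-beta1, which is the background for the lists that follow. Of 22 tested corepressors and turnover factors of Snail and Zeb proteins, 2 rose with TGF-beta1, 1 fell and 19 did not pass (median log2 fold change -0.03). Lats2, a Hippo pathway kinase, rose 1.21-fold (231 ± 4.76 against 191 ± 5.65 CPM), Ajuba, a LIM protein, rose 1.07-fold, and Pak1, a kinase that phosphorylates Snail, fell to 239 ± 3.79 from 286 ± 1.13 CPM. Of 9 tested genes around Hmga2, its paralogue Hmga1 among them, 0 rose and 0 fell with TGF-beta1. Of 13 tested intermediate filament and lamin genes other than Vim, 2 rose and 2 fell. Krt8 rose 1.20-fold, close to the 1.18-fold of Vim, Lmna rose 1.09-fold, and Lmnb1 and Synm, which encodes synemin, fell (log2 fold changes -0.24 and -0.33). Krt18, the partner of Krt8 in simple epithelia, is listed at 0 to 5 counts in a line where Krt8 held 34718 to 46419.

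Among the listed regulators, Foxm1 was uneven within groups. It held 607, 656 and 590 counts in control libraries, 1, 526 and 583 in TGF-beta1, 528, 488 and 0 in 2D-EV and 3, 485 and 447 in 3D-EV libraries. For Foxm1 and Krt18, whether reads were counted in other rows was not tested, so these counts are listed values and do not show that the transcript was absent. Immune markers Ptprc, C1qa, C1qb, Itgam, Tyrobp and Ms4a1 held no count in any library. The immune list summed to 182 to 197 CPM in control and 248 to 255 CPM in TGF-beta1 cells, nearly all of it Cd14 (185 and 248 CPM). Endothelial markers summed to 16.3 to 16.8 and 20.6 to 21.2 CPM.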
